A study of Homo sapiens with 4 samples.

Results

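Aminoacyl-tRNA synthetases attach each amino acid to its own tRNAs and so supply the ribosome with its substrates. Human cells use one set of these enzymes in the cytosol and another in the mitochondrion, both encoded in the nucleus, and some of the cytosolic enzymes assemble with scaffold proteins into a multisynthetase complex. The enzymes fall into class I and class II by the fold of the catalytic domain. The genes are widely transcribed, as all dividing cells need them for protein synthesis.

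The genes described here were found by symbol, mostly a one-letter amino acid code followed by ARS, with or without the suffix 1 or 2. The letters E, F and P were not among these codes. *EPRS*, *EARS2*, *FARSA*, *FARSB*, *FARS2* and *TARSL2* were added by name, as were the partner genes *PSTK*, *AIMP1*, *AIMP2* and *QRSL1*. The rule used symbols and no measured value. It found 37 of the 10147 genes in the table, namely 18 genes of cytosolic enzymes, 15 of mitochondrial enzymes and 4 partners. *IARS*, *MARS*, *QARS* and *TARS2* belong to the lists but had no row in the table, so they were not analysed here. *GARS* and *KARS* also make the mitochondrial form of their enzyme and were counted as cytosolic.

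RNA synthesis was measured by TT-seq, in which cells take up the nucleoside 4-thiouridine (4sU) for a few minutes and the RNA that carries it is purified and sequenced. All samples were K562, a human chronic myelogenous leukemia line, edited so that IWS1, a factor bound to elongating Pol II, carries an N-terminal dTAG. The 2 control samples received the DMSO solvent and the 2 dIWS1 samples 500 nM dTAG7, a ligand that sends the tagged protein to degradation, each for 1 h before 5 min of labelling with 500 µM 4sU. Both groups therefore carry the tag, and no untagged parental line entered the comparison. The question was how the loss of IWS1 alters RNA synthesis, and here how it does so for the genes that charge tRNAs.

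The deposited table gives 1 mean per gene over all libraries, scaled by spiked-in synthetic RNA. Whole reads per library column were worked out from these means for 10116 genes, including all 37 synthetase and partner genes. The control side of the mean held 1 distinct column with the weight of 2 equal ones and was counted once, against 2 dIWS1 columns. The test therefore assumes that the lone control column varies like the dIWS1 columns. The reads in these genes were 28548707 for control, 19839354 for dIWS1 column 1 and 20059871 for dIWS1 column 2. All 9 K562 markers looked for were in the table, for example *GATA1* with 1498 control reads and *TFRC* with 16164, while the 5 markers of other blood lineages had no row. *IWS1* itself had 3684 control reads and 2334 and 2427 dIWS1 reads, which checks little because dTAG7 acts on the protein.

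RNA synthesis of the tRNA synthetase genes was lower in dIWS1 than in control for most of the family. Of the 37 genes, 30 were called lower and 0 higher by limma voom at an adjusted p under 0.05, where 64.4% of all 10116 genes were called lower and 0.109% higher. Of the 8880 genes whose mean reached 100, 67.3% were called lower. By limma with an intensity trend the count of higher genes was also 0, and 0 genes had an unadjusted p under 0.05 with a change above 0. These counts add little, because *TARSL2* alone had a change above 0, of 0.03. The median log2 change was -0.51 (quartiles -0.65 and -0.41), beside -0.42 (quartiles -0.60 and -0.26) over all genes. At this median, reads per spike-in fell by 29.7%. In 36 of the 37 genes both dIWS1 columns lay below the control, as they did in 92.1% of all genes and in 93.8% of those whose mean reached 100. The share of calls and the median were thus close to, and somewhat beyond, those of the whole transcriptome. In these bulk samples, fewer labelled cells and less RNA per cell cannot be told apart.

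**Figure D1:**
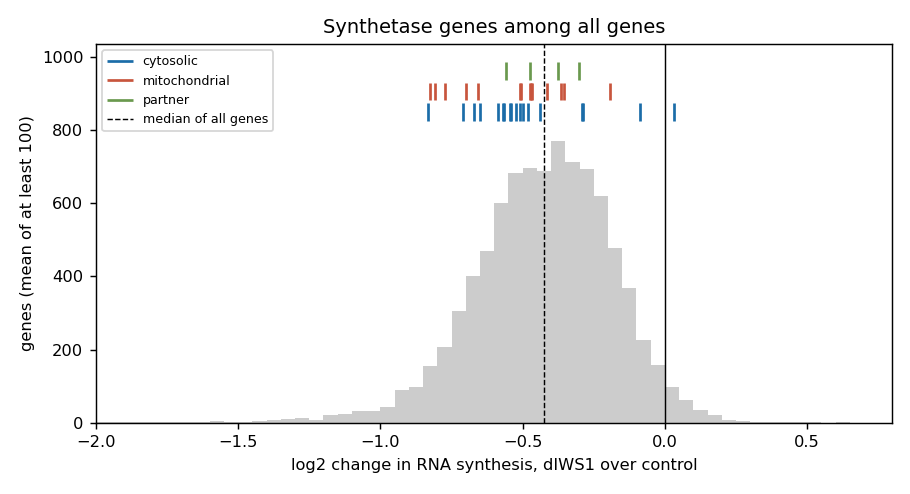
Log2 change in RNA synthesis (x axis, dIWS1 over control, spike-in scaled) against the number of genes (y axis) for genes whose mean normalized count reached 100, with ticks for the cytosolic, mitochondrial and partner genes above the histogram; 1 gene lies outside the axes. The ticks of 36 genes run from -0.83 to 0.03 and most fall to the left of the dashed median of all genes at -0.42.

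Against the typical gene the family moved little. When all values were recentred on the median gene, a shift of 0.42 on the log2 scale, 27 of the 37 genes still lay below 0 and their median was -0.08. No gene was then called lower by limma voom, where 4.78% of all genes were, and 1 was called higher, *TARSL2*, where 3.01% of all genes were. Unadjusted p-values under 0.05 were found for 7 of the 37 genes (18.9%) in that fit, and for 21.8% of all genes. When columns were scaled by their total reads in genes, 8 genes were called lower beside 11.5% of all genes, and 3 were called higher beside 15.0%. Among those lower were *FARSB*, *NARS2*, *FARS2*, *CARS*, *LARS2*, *EARS2* and *AARS*, and those higher were *TARSL2*, *HARS* and *RARS2*. In this scaling the columns no longer differ by their spike-in factors, and the median standard error of the 37 genes was 0.060, as against 0.15 with spike-ins.

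The largest falls were found for *FARSB* and *FARS2*, which serve phenylalanine, and for the mitochondrial enzyme genes *VARS2* and *NARS2*. *FARSB*, which encodes the β subunit of cytosolic phenylalanyl-tRNA synthetase, had 7377 control reads and 3860 and 3980 dIWS1 reads. Its log2 change was -0.91 in dIWS1 column 1 and -0.76 in column 2, and the fitted change was -0.83 ± 0.15 (SE, adjusted p = 4.29e-07, limma voom). *FARS2*, the single-chain mitochondrial phenylalanine enzyme, had 19430, 11098 and 10424 reads and changes of -0.78 and -0.76. The 2 columns of *FARS2* lay closer together than those of most of the other genes. *VARS2*, the mitochondrial valine enzyme, had 346 control reads and 178 and 192 dIWS1 reads, which gave a fitted change of -0.83 ± 0.14 (adjusted p = 1.74e-07, limma voom). *NARS2*, the mitochondrial asparagine enzyme, had 6196, 3361 and 3332 reads and fell by 0.81 ± 0.15 on the log2 scale (adjusted p = 9.52e-07, limma voom). These were among the 5 genes below -0.73, the bound of the lowest 10% of genes whose mean reached 100.

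At the other end, 7 genes were not called. *TARSL2*, now named *TARS3*, encodes a second cytosolic threonine enzyme. It had 701 control reads and 627 and 735 dIWS1 reads, so that 1 dIWS1 column lay below the control and the other above it (-0.14 and 0.20). The fitted change was 0.03 ± 0.13 (adjusted p = 0.81, limma voom). Recentred on the median gene, the *TARSL2* change was 0.46 (adjusted p = 0.010, limma voom), and scaled by total reads it was 0.47 (adjusted p = 0.013). *HARS*, the cytosolic histidine enzyme, had 1490, 1326 and 1330 reads, with both dIWS1 columns just below the control. Its fitted change was -0.09 ± 0.14 (adjusted p = 0.57, limma voom), and under the recentred and total read scalings it turned to 0.34 and 0.35. *RARS2*, the mitochondrial arginine enzyme, had 8228, 6630 and 7016 reads and a change of -0.19 ± 0.15 (adjusted p = 0.23, limma voom), which became 0.23 and 0.25 under the same scalings. Of these genes, *TARSL2* and *HARS* lay above -0.14, the bound of the highest 10% of genes whose mean reached 100. *RARS* and *KARS*, the cytosolic arginine and lysine enzymes, both had a change of -0.29 (adjusted p = 0.070 and 0.067, limma voom). *MARS2* and *PSTK* had the fewest reads, 113 and 123 in control, and the widest errors.

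**Figure D2:**
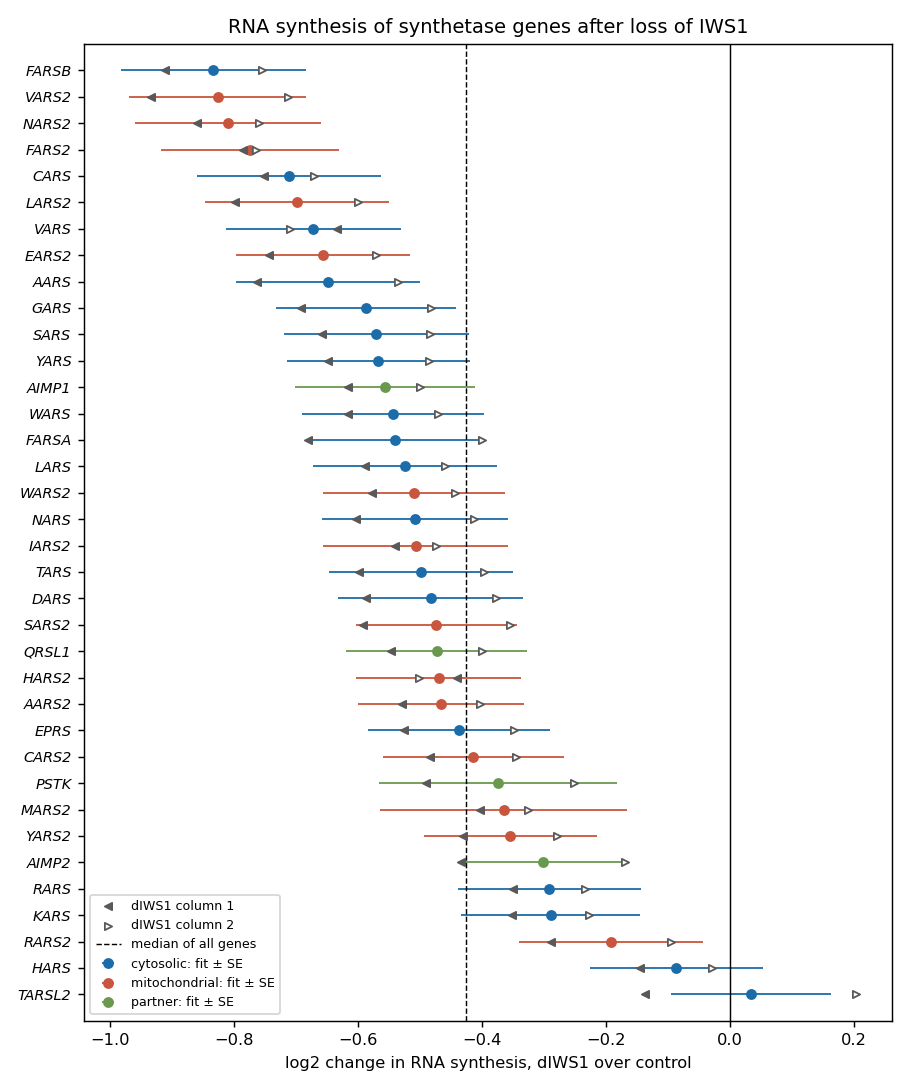
Log2 change in RNA synthesis (x axis, dIWS1 over control, spike-in scaled) of 36 genes (y axis), with the fit ± SE as a coloured point and line and each dIWS1 column as a triangle. The changes run from -0.83 for *FARSB* to 0.03 for *TARSL2*, and genes right of the dashed line, the median of all genes at -0.42, turn above 0 when the values are recentred on it.

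dIWS1 column 1 was lower than column 2 in 35 of the 37 genes, and column 1 minus column 2 had a median of -0.16 on the log2 scale. Over all genes whose mean reached 100 this difference had a median of -0.12 and an SD of 0.13. The 2 columns therefore differed by an amount common to most genes, which enters the error of every change above. That amount is a single difference between 2 columns, so the smallest p-values overstate what the design can show. The median error from read counting alone was 0.037, so depth set a small part of the error for most of these genes. The exceptions were *MARS2*, *PSTK*, *VARS2* and *HARS2*, which had fewer than 500 control reads.

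The cytosolic and mitochondrial enzymes fell by similar amounts. Of the 18 cytosolic genes 14 were called lower and 0 higher, with a median of -0.53 (quartiles -0.58 and -0.45). Of the 15 mitochondrial genes 13 were called lower and 0 higher, with a median of -0.51 (quartiles -0.72 and -0.44). Over all genes 64.4% were called lower and 0.109% higher, with a median of -0.42. Among genes whose mean reached 100, 67.3% were called lower. The mitochondrial median minus the cytosolic one was 0.02 in the fit, 0.03 in dIWS1 column 1 and -0.04 in column 2, so that its sign changed between the columns. Both medians stayed below 0 when recentred on the median gene (-0.11 and -0.08). The mitochondrial genes had the broader middle range, with *VARS2*, *NARS2*, *FARS2*, *LARS2* and *EARS2* between -0.83 and -0.66. The cytosolic genes held both ends of the family, *FARSB* and *TARSL2*.

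Among the cytosolic class I enzymes, *CARS*, for cysteine, had 7845, 4583 and 4489 reads and a change of -0.71 ± 0.15 (adjusted p = 1.48e-05, limma voom). *VARS*, for valine, had 1860, 1179 and 1036 reads and a change of -0.67, and it was one of the genes in which column 2 was the lower one. *YARS*, *WARS* and *LARS*, for tyrosine, tryptophan and leucine, were called lower at -0.57, -0.54 and -0.52. In class II, *AARS*, for alanine, had 8897, 5160 and 5594 reads and a change of -0.65. *GARS*, for glycine, had 15193, 9257 and 9912 reads and a change of -0.59. *SARS*, *NARS*, *TARS* and *DARS*, for serine, asparagine, threonine and aspartate, were called lower at -0.57, -0.51, -0.50 and -0.48. The class of the enzyme did not separate the genes, with medians of -0.52 for 16 class I genes (13 called lower) and -0.51 for 17 class II genes (14 called lower). Beside them, all genes had a median of -0.42 and 64.4% were called lower. *EPRS*, whose product serves glutamate and proline, was counted in class I for its glutamate part alone.

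Other mitochondrial genes were called lower as well. *LARS2* and *EARS2*, for leucine and glutamate, had changes of -0.70 and -0.66, and *WARS2* and *IARS2*, for tryptophan and isoleucine, were both at -0.51. *SARS2*, *HARS2* and *AARS2*, for serine, histidine and alanine, were each at -0.47. *CARS2* was at -0.41 and *YARS2* at -0.35 (adjusted p = 0.0099 and 0.020, limma voom), and both turned above 0 under the recentred and total read scalings.

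Subunits and partners were read against each other. *FARSA* encodes the α subunit that pairs with *FARSB* and had 1185, 727 and 818 reads. Its change of -0.54 ± 0.13 was smaller than that of *FARSB* by 0.29, within 2 SE of the spike-in fit (SE 0.20) and beyond 2 SE of the total read scaling (SE 0.10). The multisynthetase complex was represented by 7 genes, *EPRS*, *LARS*, *RARS*, *KARS*, *DARS*, *AIMP1* and *AIMP2*, of which 5 were called lower with a median of -0.44. The 5 enzymes of the complex had a median of -0.44 (3 called lower) and the 13 cytosolic enzymes outside it -0.57 (11 called lower). Over all genes the median was -0.42 and 64.4% were called lower, so these 5 enzymes of the complex lay near the typical gene. The complex also holds the enzymes of *IARS*, *MARS* and *QARS*, which had no row and are not covered. *EPRS*, whose product charges both glutamate and proline tRNAs, had 11520, 7870 and 8243 reads and a change of -0.44, which came to 0.00084 when scaled by total reads. The scaffold gene *AIMP1* had 2396, 1538 and 1544 reads and a change of -0.56, and the scaffold gene *AIMP2* had 978, 712 and 792 reads and a change of -0.30 (adjusted p = 0.037, limma voom). The call on *AIMP2* was lost with the control column entered 2 times (adjusted p = 0.062) and in the limma trend fit (adjusted p = 0.096), and its change turned to 0.12 when recentred. *QRSL1*, the catalytic subunit of the amidotransferase that makes mitochondrial glutaminyl-tRNA, had 2480, 1670 and 1712 reads and a change of -0.47. *PSTK*, the kinase of the selenocysteine route, had 123, 86 and 94 reads and a change of -0.37 (adjusted p = 0.074, limma voom).

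Enzymes for the same amino acid could be compared in 14 pairs of a cytosolic and a mitochondrial gene. *FARS2* entered 2 of these pairs, with *FARSA* and with *FARSB*, so the pairs are not all separate. The mitochondrial gene was lower than its cytosolic counterpart in both dIWS1 columns in 7 pairs, higher in both in 6, and mixed in 1. With the errors of the spike-in fit, which hold the offset common to the dIWS1 columns, all 14 differences lay within 2 SE. That offset cancels within a pair, and with the errors of the total read scaling 8 of the 14 differences lay beyond 2 SE, 6 with the mitochondrial gene lower and 2 with it higher. No p-value was computed for these differences, and the 2 SE bound is not adjusted for the number of pairs. The share of other gene pairs beyond the same bound was not computed. The 8 of 14 can therefore not be read as particular to these pairs. *HARS* and *HARS2* differed most, by -0.38 (SE 0.19 with spike-ins and 0.13 with total reads), with -0.30 in column 1 and -0.47 in column 2. *NARS* and *NARS2* differed by -0.30 (SE 0.21 and 0.080), and *CARS* and *CARS2* by 0.30 (SE 0.21 and 0.081) in the opposite sense. The cytosolic threonine genes *TARS* and *TARSL2*, set side by side after their values were seen, differed by 0.53 (SE 0.20 and 0.12), with 0.46 and 0.60 in the columns. These differences hardly depend on the scaling, as each compares genes of the same columns.

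**Figure D3:**
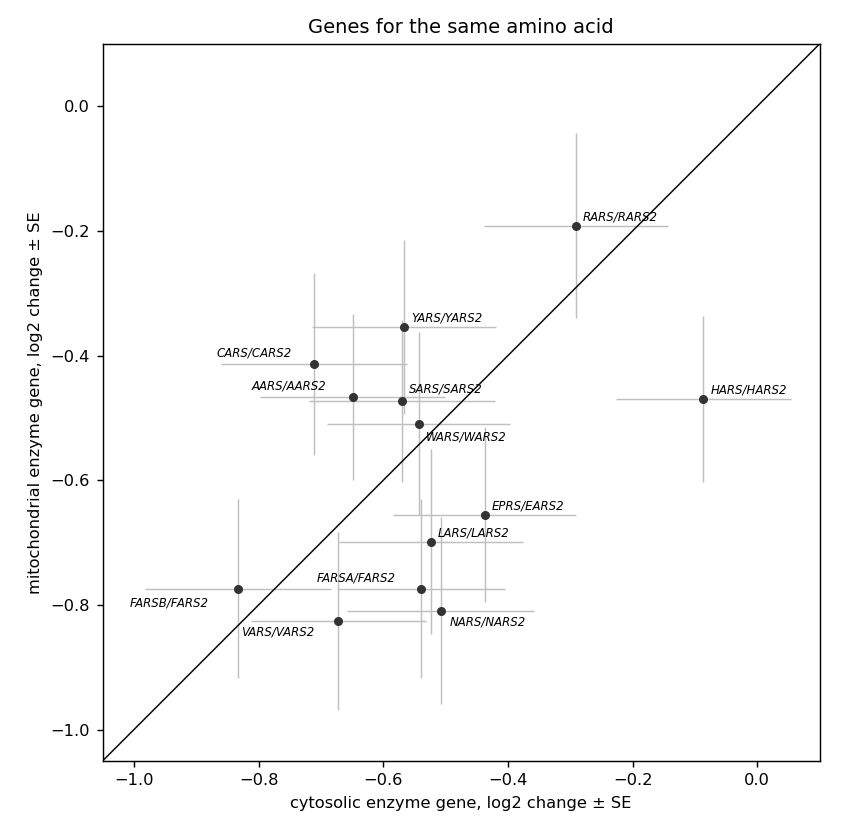
Log2 change of the cytosolic gene (x axis) against that of the mitochondrial gene (y axis) for 13 pairs that serve the same amino acid, each with SE lines; the diagonal marks equal change. *HARS* and *HARS2* lie farthest from the diagonal, with a difference of -0.38.

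The histidine pair is also a pair of neighbours. *HARS* (GRCh38.p14, chr5:140673905-140691370, minus strand) and *HARS2* (chr5:140691455-140699305, plus strand) point away from each other, with 84 bases between the 2 annotated spans. *HARS2* had 440 control reads and 319 and 283 dIWS1 reads, and a change of -0.47 ± 0.13 (adjusted p = 0.0012, limma voom), while the neighbouring *HARS* had the -0.09 given above. The stretch between them is shown from RefSeq on the plus strand, chr5:140691371-140691454, because both genes start at its ends. Capitals mark the 2 matches to CCGGAAGT, an ETS-type motif, of which 1 is on each strand.

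HARS to HARS2: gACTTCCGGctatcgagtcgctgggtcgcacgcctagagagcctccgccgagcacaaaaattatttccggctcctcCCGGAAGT

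The motifs were chosen after the values were seen, CCGGAAGT after reading this stretch. RefSeq promoter windows, 250 bases before to 50 after an annotated start, were given for 29 of the 37 genes, with several windows where a gene has several starts, and searched on both strands. CCGGAAGT was in the windows of 7 of the 29 genes (24.1%), *CARS*, *EARS2*, *WARS*, *NARS*, *TARS*, *HARS2* and *HARS*, and in 11.4% of the 8006 genes with a window. *HARS* and *HARS2* held it from the outset, and without them it was in 5 of 27 genes (18.5%). CACGTG, the E-box bound by MYC and USF proteins, was in 13.8% against 12.8%, and the NRF1 palindrome was in 1 of the genes, *MARS2*, and in 2.90% of all. TGATGNAAT, the type of element bound by ATF4 with a CEBP partner, was found in *GARS* and *TARS* and in 0.650% of all genes with a window. Both matches lie on the strand opposite to the gene and in the window of a start downstream of the gene's outermost one. Those starts are at 30594878 for *GARS* and 33440965 for *TARS*, and the matches begin 34 bases before and 1 base after them. They are shown with 10 bases on each side, the match in capitals, at chr7:30594834-30594862 and chr5:33440956-33440984, because ATF4 is a known activator of cytosolic synthetase genes.

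GARS: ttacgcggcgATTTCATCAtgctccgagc

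TARS: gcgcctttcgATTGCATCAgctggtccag

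Both genes had changes close to that of the family, -0.59 for *GARS* and -0.50 for *TARS*. A match describes letters in a window and not a bound site.

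Levels of labelled RNA, in normalized counts per kb of gene span, differed far more between the genes than between the conditions. In control the highest level was that of *GARS* with 383, followed by *WARS* with 294, *TARS* with 288 and *NARS* with 251. The lowest levels were those of *TARSL2* with 9.80, *PSTK* with 12.2 and *WARS2* with 24.1. Of the 10 highest genes 9 were cytosolic and 1 was mitochondrial, *YARS2*, while 8 of the 10 lowest were mitochondrial. The median level was 137 for the cytosolic genes and 47.7 for the mitochondrial ones, at similar median spans of 38.3 and 36.6 kb. Within the 14 pairs the cytosolic gene had the higher level in 13, by a median ratio of 2.75. The ratio was largest for *WARS* over *WARS2* at 12.2, and the exception was *RARS*, at 0.734 of *RARS2*. *TARS* was 29.4 times *TARSL2*. Of the 36 neighbouring pairs in this order 23 had overlapping exact 95% Poisson intervals, which cover counting error only, so that for example *WARS* and *TARS* were not separated.

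**Figure D4:**
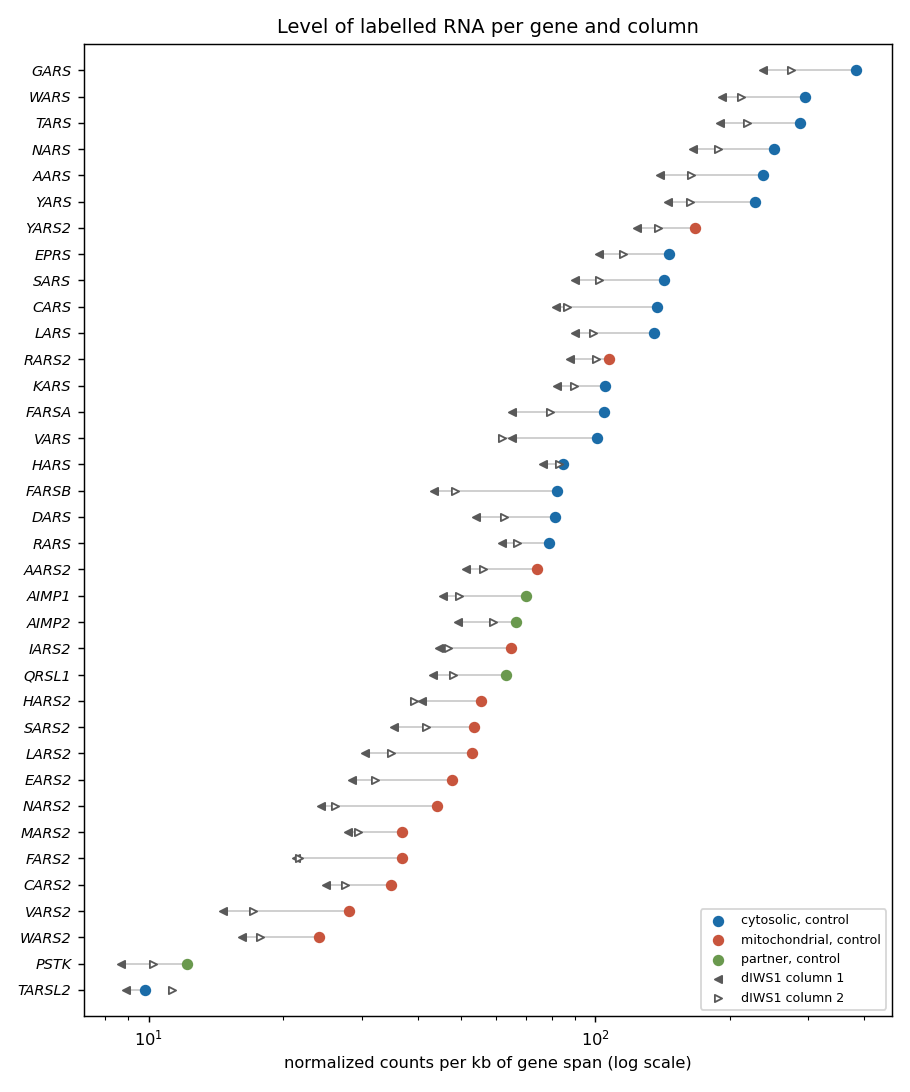
Level of labelled RNA (x axis, normalized counts per kb of gene span, log scale) for 36 genes (y axis) in the control column (coloured points) and the 2 dIWS1 columns (triangles). Cytosolic genes fill most of the top, led by *GARS* at 383, and mitochondrial genes most of the bottom, although the lowest gene, *TARSL2* at 9.80, is a cytosolic one.

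Gene length accompanied the change only loosely. Over the 37 genes the change had a Pearson r of -0.29 and a Spearman rho of -0.33 with log2 span, and over the 8848 genes whose mean reached 100 and whose span was known these were -0.08 and -0.09. All points come from the same 3 columns, and the values are descriptions. *FARS2* spans 522 kb and *NARS2* 139 kb, and both were among the largest falls, but *VARS2* spans 12.2 kb and fell as far. *TARSL2* spans 70.9 kb and *RARS2* 76.1 kb, and neither was called. In the length class from 27.1 to 63.1 kb the 12 synthetase and partner genes had a median of -0.56 and 11 were called lower, beside a median of -0.34 and 57.3% for all genes of that class. In the class below 10.4 kb the 4 genes had a median of -0.37, beside -0.49 for all genes. In the classes between 10.4 and 27.1 kb and above 63.1 kb the medians were -0.49 and -0.51, beside -0.39 and -0.49.

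**Figure D5:**
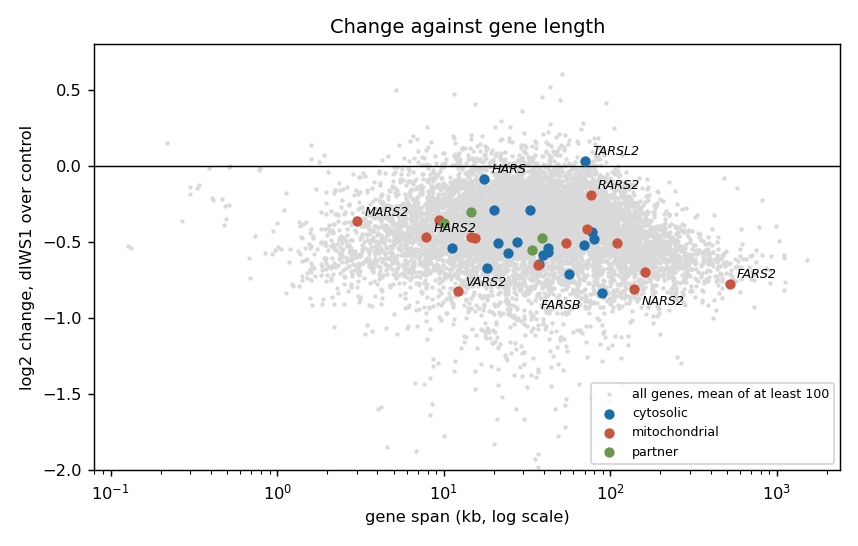
Log2 change (y axis, dIWS1 over control, spike-in scaled) against gene span (x axis, kb, log scale) for all genes whose mean normalized count reached 100 (grey) and for the synthetase and partner genes (coloured). *FARS2* and *VARS2*, at 522 and 12.2 kb, lie at similar changes of -0.77 and -0.83.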

How the data were processed

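TT-seq was performed on K562 cells with synthetic spike-in RNAs. The authors aligned reads with STAR 2.6.0 to GRCh38, kept unique alignments, counted read pairs per RefSeq gene by strand, removed overlapping genes and weakly transcribed ones, and fitted DESeq2 with spike-in size factors. The deposited table holds, per gene, a signal, namely the average over all 4 libraries of spike-in scaled counts. It also holds the authors' comparison (a log2 fold change with its error, statistic and p-values). Of these, the deposited log2 values were used only to tell which recovered columns were dIWS1, and none was compared or printed.

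Means are whole multiples of 3 steps. Each of 10136 means above 0 was split into whole reads, and 10116 (99.8%) had 1 solution. The other 20, all very abundant, were left out. One step had the weight of 2 equal columns, and the deposited log2 values placed its column on the control side. Why the 2 control libraries are equal in the mean is unknown. Columns carry no replicate numbers.

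Reads with spike-in size factors (1.01, 0.993 and 0.919) were tested with limma 3.58.1 voom in R 4.3.3 (pseudocount 0.5 reads, Benjamini-Hochberg over 10116 genes), since the file gives no counts. The script was tested on simulated data. The reads simulated for the fit held no offset between the dIWS1 columns, so that test cannot speak for the p-values given here. All genes shared the fitted variance trend. P-values rest on the spread between 2 dIWS1 columns, pooled over all genes and treated as if it were known exactly. A large part of that spread is the offset common to the genes, a single difference between the 2 columns. Over genes whose mean reached 100, column 1 minus column 2 had a median of -0.12 and an SD of 0.13. Very small p-values are thus smaller than 3 columns can bear, and they rank genes rather than measure certainty. The labels number the samples of each group as replicates, and the paper states that TT-seq had 2 biological replicates. Spans and promoters came from RefSeq (GRCh38.p14), which matched 10098 of 10147 genes. Every gene the symbol rule found entered the counts and medians, and 1 is not reported by name here or drawn singly. The members and lists were chosen with earlier results of these data known. Alternatives were scaling (recentred on the median gene, or total reads in genes), the control entered 2 times, filters at means of 10 and 100, a pseudocount of 1, a limma trend fit, adjusted p under 0.01 or 0.1, each dIWS1 column left out, and *GARS* and *KARS* left out. Tables were handled in pandas 2.3.3 and intervals computed with scipy 1.17.1 under Python 3.11.15.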

Additional observations from a re-analysis of the deposited data

How the results depend on the processing

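Recentring on the median gene and scaling by total reads in genes moved the counts. The 30 lower synthetase genes became 0 and 8, and the 0 higher became 1 and 3. Lower cytosolic genes became 0 and 3 and higher ones 1 and 2, while lower mitochondrial genes became 0 and 5 and higher ones 0 and 1. Over all genes the lower count (6510) became 484 and 1163 and the higher count (11) became 304 and 1519. The higher count over all genes was 61 with the control entered 2 times, 26 with limma trend, 6 at an adjusted p under 0.01 and 23 under 0.1. The cytosolic median became -0.11 and -0.094, the mitochondrial one -0.082 and -0.069. Values that turned above 0 under the recentred and total read scalings were *CARS2* (0.011, 0.024), *PSTK* (0.050, 0.067), *MARS2* (0.060, 0.074), *YARS2* (0.071, 0.083), *AIMP2* (0.12, 0.14), *RARS* (0.13, 0.15), *KARS* (0.14, 0.15), *RARS2* (0.23, 0.25) and *HARS* (0.34, 0.35), and *EPRS* by total reads (0.00084). These settings subtract a common shift by construction. With the control entered 2 times *PSTK*, *MARS2*, *RARS* and *KARS* were also called lower. That setting repeats the same control column without any spread, and the median standard error fell from 0.15 to 0.066. The added calls are therefore no further evidence. With either dIWS1 column left out *TARSL2* ranged from -0.14 to 0.20, and the mitochondrial minus cytosolic median from -0.037 to 0.032. The other filters, pseudocounts and thresholds gave 28 to 34 lower synthetase genes. No paired analysis was possible because the recovered columns carry no replicate numbers.

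The whole comparison rests on 1 control column and on the spike-in scaling, whose part in the common fall was not tested. *MARS2*, with 113 control reads, did not reach a mean of 100. The columns are named by the deposited comparison, and which dIWS1 library each is remains unknown.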

Other observations

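Other genes of tRNA charging and maturation were read from a list of 29, of which 27 were in the table. Of these 18 were called lower and 0 higher by limma voom, with a median log2 change of -0.40, beside 64.4% and -0.42 over all genes. Recentred on the median gene, 2 were called lower, *ELAC1* and *GATB*, and 1 higher, *RPP40*. *ELAC1*, which encodes a tRNA 3′ processing endonuclease, had 463 control reads and 108 and 141 dIWS1 reads, a change of -1.83 (adjusted p = 9.26e-31, limma voom) and the lowest of the list. *GATB*, a subunit of the same mitochondrial amidotransferase as *QRSL1*, had 1987, 958 and 1019 reads and a change of -0.93, while its partner *GATC* had 1521, 1206 and 1162 reads and a change of -0.28 (adjusted p = 0.064, limma voom). *RPP40*, a protein subunit of RNase P, had 222, 202 and 236 reads and a change of 0.05, with 1 dIWS1 column on each side of the control.

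Of the genes of the selenocysteine route in the same list, *SEPHS1*, *SEPHS2* and *SECISBP2* had changes of -0.53, -0.55 and -0.43, beside a median of -0.42 over all genes. *EEFSEC*, the elongation factor for selenocysteine, had 9876, 5260 and 5176 reads and a change of -0.84, whereas *SEPSECS*, the enzyme that acts after *PSTK*, had 2629, 2242 and 2275 reads and a change of -0.14 (adjusted p = 0.39, limma voom). *MTFMT*, which formylates the mitochondrial initiator tRNA charged by *MARS2*, had 993, 873 and 875 reads and a change of -0.10. *PARS2*, the mitochondrial proline enzyme that the symbol rule left out, had 128, 74 and 68 reads and a change of -0.77 (adjusted p = 0.00043, limma voom).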
